A study of Mus musculus with 36 samples.

Results

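The late part of the nuclear hypoxia response was measured in C1.1 cells, as the change of each gene between 24h and 2h of hypoxia. The comparison used the 3 libraries of the C1.1 nucleus at 24h and the 3 at 2h, that is 6 of the 36 libraries of the series, and 15735 of the 26400 genes in the table passed the filter on low counts and were tested. C1.1 is a line grown from 1 clone of C166, a mouse yolk sac endothelial line, after CRISPR removal of a short stretch of an intron of Sfmbt2 that holds a miR-466c hairpin. The parental C166 line carries the intact hairpin. Both lines were grown in normoxia or in hypoxia for 2h or 24h and split into nucleus and cytoplasm, with 3 libraries of ribosomal RNA-depleted total RNA for each of the 12 groups. A difference between the lines cannot be told apart from a difference between 1 clone and its parent. Each line and fraction has a single normoxia group, and the labels do not say whether total time in culture was matched. If it was not, longer hypoxia and longer culture cannot be told apart between 2h and 24h.

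Cells in low oxygen stabilise the alpha subunits of the hypoxia-inducible factors (HIF), which enter the nucleus, pair with the constitutive subunit Arnt and bind the letters ACGTG or GCGTG near their target genes. Prolyl hydroxylases of the Egln family mark the alpha subunits for destruction when oxygen is present, and several of these enzymes are themselves HIF targets. Sustained hypoxia is also known to slow costly processes such as ribosome production and DNA replication. RNA in a nuclear fraction includes transcripts still being made or processed, so it lies closer to transcription than the cytoplasmic pool does.

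Levels are given as CPM, the count of a gene scaled to a fixed library size, after trimmed mean of M-values (TMM) scaling, a gene was called when its Benjamini-Hochberg adjusted p was under 0.05 in edgeR's quasi-likelihood test, and fold changes are log2 of 24h over 2h with their standard error (SE). Total counts ran from 17378652 to 20505843 in the 24h libraries and from 15314724 to 18316508 in the 2h libraries. The labels do not say whether the 3 libraries of a group came from separate cultures, so a p-value speaks to the scatter among them, which may be technical. On the first principal component of the 9 nuclear C1.1 libraries the 24h libraries stood at -60.9 to -58.2, the 2h libraries at 19.6 to 29.8 and those in normoxia at 33.9 to 40.3. Replicate 2 at 2h stood apart on the second component, at -72.4 against 0.4 to 23.3 for the other libraries, and had the fewest genes with counts, 16468. Replicate 1 at 2h stood apart on the third, at 51.9. Without replicate 2 at 2h 4939 genes were called, and the leading lists gave 26 HIF targets, 19 glycolysis and 26 sterol genes higher and 43 nucleolar genes lower.

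The endothelial label was not borne out by every defining marker. Cdh5, Kdr, Tie1 and Sox18 had no counts in any of the 6 libraries, while Cd34 had 233, 231 and 232 CPM at 24h, against 164, 185 and 159.8 CPM at 2h. Summed over 14 endothelial markers of a short defining set the level was 239 to 242 CPM at 24h and 165 to 194 CPM at 2h, nearly all of it Cd34. The 14 smooth muscle and mesenchyme markers summed to 4750 to 5760 CPM at 24h and 3520 to 3890 CPM at 2h, of which Col1a2 was the largest. The 7 blood markers summed to 0.666 to 1.16 CPM at 24h and 0 to 0.0528 CPM at 2h. The 5 epithelial markers summed to 64.6 to 80.6 CPM at 24h and 16.9 to 24.6 CPM at 2h, nearly all of it Krt19. Malat1, an RNA held in the nucleus, averaged 13500 CPM at 24h and 10800 CPM at 2h, and mitochondrial mt-Co1 did not exceed 1.06 CPM in any of these libraries. In such bulk fractions fewer cells of a kind and less RNA per cell cannot be told apart.

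Between 2h and 24h of hypoxia 5640 genes were called in the C1.1 nucleus, of which 2961 rose, 18.8% of those tested, and 2679 fell, 17% of those tested. A change of at least 2-fold was found in 1289 called genes, 911 higher and 378 lower at 24h. The 3 libraries at 24h did not overlap the 3 at 2h for 7101 genes, 45.1% of those tested. By comparison, 2h of hypoxia against normoxia called 327 genes higher (2.08%) and 190 lower (1.21%), and 24h against normoxia called 3508 higher (22.3%) and 3219 lower (20.5%). These comparisons share the 2h or the 24h libraries with the late one, so their values are given side by side only. With library totals alone as the scale the late split was 2679 higher and 2969 lower, while the median change over all genes moved by less than 0.1 on the log2 scale.

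Among called genes whose mean level over the nuclear libraries was above the median and whose groups did not overlap, the steepest rise was that of Tenm4 (chr7:96171246-96911093, GRCm38), a teneurin that spans the membrane and joins cells of the nervous system. Its level was 82.3, 121 and 120.3 CPM at 24h, against 6.07, 6.88 and 6.43 CPM at 2h, a log2 fold change of 4.06 ± 0.16 (SE, adjusted p = 1.95e-15). All libraries at 24h were far above all at 2h, and the step before it did not pass the test, with 5.81, 4.72 and 5.71 CPM in normoxia (log2 fold change of 2h over normoxia 0.25, adjusted p = 0.532). Mmp3 (chr9:7445822-7455975), the matrix protease stromelysin, had the same shape at a higher level, with 742, 774 and 729 CPM at 24h, against 159, 131 and 106 CPM at 2h (2.50 ± 0.15, SE, adjusted p = 2.03e-12). Wisp2, a secreted matricellular protein, had 97.8, 106 and 93.9 CPM at 24h, against 13.3, 15.3 and 11.7 CPM at 2h (2.88 ± 0.13, SE, adjusted p = 2.61e-14). In all 3 genes no library of one time fell among those of the other, and Wisp2 had already been called higher at 2h than in normoxia (0.80).

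Tmem45a, a multi-pass membrane protein, had 208, 218 and 236 CPM at 24h, against 22.7, 27.7 and 18.7 CPM at 2h (3.26 ± 0.17, SE). Plin4, a coat protein of lipid droplets, had 74.3, 94.9 and 83.9 CPM at 24h, against 15.6, 14.9 and 16.4 CPM at 2h (2.43 ± 0.14, SE). Both were already called higher at 2h than in normoxia, by 1.68 and 1.04 on the log2 scale. Pkp2, a desmosome plaque protein, had 8.66, 12.6 and 13.3 CPM at 24h, against 2, 2.39 and 1.92 CPM at 2h (2.45 ± 0.18, SE). Slc1a3, a glutamate transporter, had 85, 40.2 and 35 CPM at 24h, against 11, 7.62 and 9.27 CPM at 2h (2.52 ± 0.25, SE), and its first library at 24h lay at more than 2-fold the other two. Neither Pkp2 nor Slc1a3 was called at 2h against normoxia. Ly6c1, an antigen of a multigene family, had 69.1, 53.9 and 48.3 CPM at 24h, against 7.02, 5.91 and 5.07 CPM at 2h, and Serpinb9b, of a serpin family that inhibits granzymes, had 46.8, 60.5 and 79.7 CPM, against 13.9, 5.74 and 13.1 CPM. Reads of these 2 genes may be split with near-identical copies, so their levels are uncertain. Ptx3, a secreted pentraxin of innate immunity, rested on few counts, with 1.55, 2.21 and 1.97 CPM at 24h, against 0, 0 and 0.742 CPM at 2h.

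**Figure D1:**
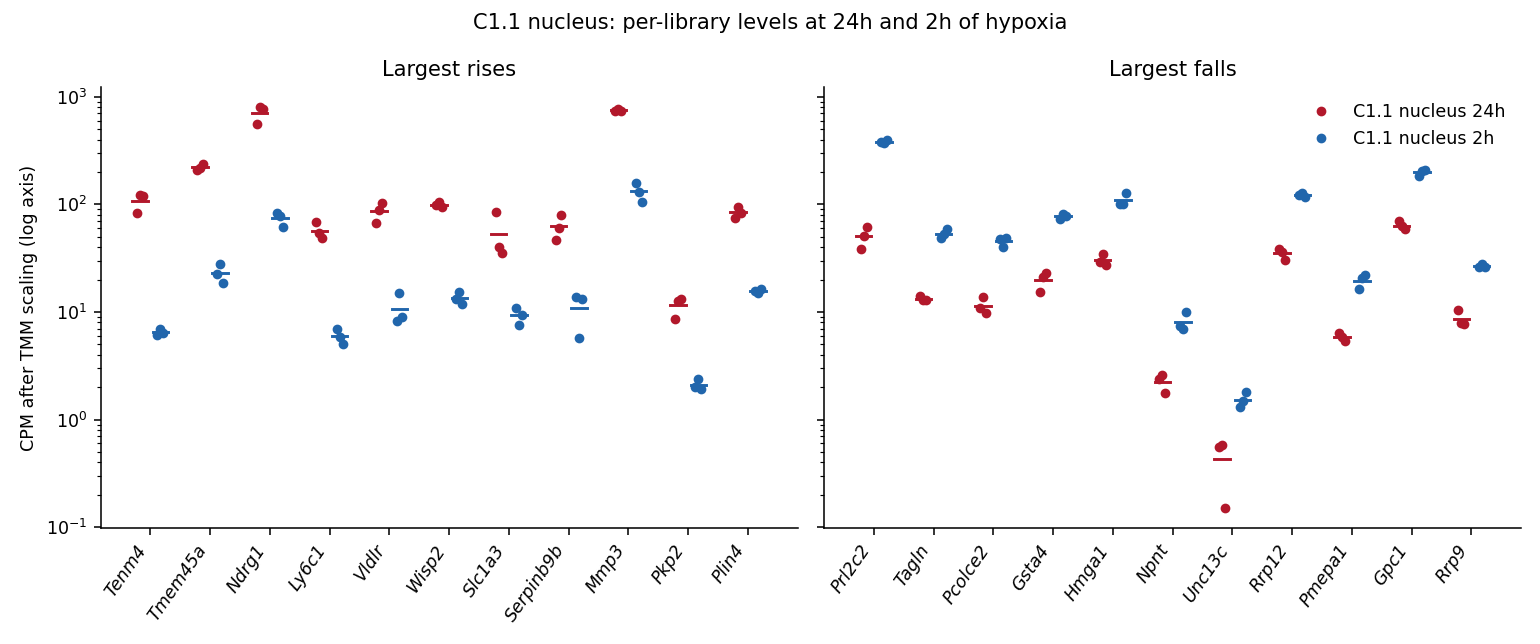
Level of the genes with the largest rises (left) and falls (right) in the C1.1 nucleus, in CPM after TMM scaling on a log axis. Each point is 1 library, red at 24h and blue at 2h, and bars are means of 3. Tenm4 stands at 82.3 to 121 CPM at 24h and 6.07 to 6.88 CPM at 2h, and Prl2c2 at 38.7, 50.7 and 62 CPM at 24h and 382, 368 and 399 CPM at 2h. Ptx3 and U90926 are left out because some of their libraries hold no counts.

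By the same rule the steepest fall with counts at both times was that of Prl2c2 (chr13:12996125-13005383), a secreted proliferin of the prolactin family. It had 38.7, 50.7 and 62 CPM at 24h, against 382, 368 and 399 CPM at 2h, a log2 fold change of -2.92 ± 0.17 (SE, adjusted p = 7.56e-13), and close copies of this gene make its level uncertain. Hmga1, a chromatin protein that bends AT-rich DNA and has processed copies, had 28.9, 34.6 and 27.3 CPM at 24h, against 101, 102 and 127 CPM at 2h (-1.86 ± 0.17, SE). Gpc1, a cell surface heparan sulfate proteoglycan, had 69.3, 62.4 and 58.9 CPM at 24h, against 184, 203 and 209 CPM at 2h (-1.64 ± 0.10, SE, adjusted p = 3.7e-12). In each of these the 24h libraries were all low and the 2h libraries all high, and none was called between 2h and normoxia. Tagln, an actin-binding protein of smooth muscle, had 14.2, 13 and 12.8 CPM at 24h, against 48.9, 52.5 and 58.7 CPM at 2h, and 83.5, 83.5 and 72.8 CPM in normoxia, so its fall had begun at 2h (log2 fold change -0.58, adjusted p = 0.021) and went on to 24h (-2.00 ± 0.16, SE). Pcolce2, an enhancer of procollagen cleavage, had 10.8, 13.8 and 9.73 CPM at 24h, against 47.4, 40.1 and 48.9 CPM at 2h (-1.99 ± 0.18, SE). It was close to absent in C166, at no counts in the 24h nuclear libraries and 0.0518, 0 and 0 CPM in those at 2h. Pmepa1, a membrane protein that dampens TGF-beta signalling, had 6.38, 5.87 and 5.39 CPM at 24h, against 16.2, 20.5 and 21.8 CPM at 2h. Npnt, an integrin ligand of the matrix, had 2.39, 2.6 and 1.76 CPM, against 7.39, 6.93 and 10.0 CPM, and Unc13c, a vesicle priming factor, 0.555, 0.578 and 0.151 CPM, against 1.32, 1.48 and 1.79 CPM. All 3 were lower in every library at 24h than in any at 2h. U90926 had 0 counts over the 3 libraries at 24h, against 97 counts at 2h. With a floor of 3 counts over the group it was at least 35.96-fold lower at 24h.

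Of 37 tested HIF targets listed as outside metabolism 27 rose between 2h and 24h and none fell, where 18.8% of all genes rose. The median log2 fold change was 1.13, against 0.001 over all genes. Despite its name the list holds Slc2a1, counted again under glycolysis, and the metabolic genes Pfkfb3, Pfkfb4 and Ak4. Ndrg1 (chr15:66929318-66969640), a stress response gene long used as a hypoxia marker, had 553, 797 and 765 CPM at 24h, against 82.7, 77.8 and 62.1 CPM at 2h (3.25 ± 0.15, SE, adjusted p = 3.81e-14). Vldlr, the receptor for very low density lipoprotein, had 66.5, 89.1 and 104 CPM at 24h, against 8.23, 15 and 8.9 CPM at 2h (3.01 ± 0.17, SE, adjusted p = 7.27e-13). Both genes rose at each step, since they were also called higher at 2h than in normoxia, by 1.88 and 1.48. Lox, which crosslinks collagen and elastin, had 799, 1118 and 1287 CPM at 24h, against 246, 236 and 230.3 CPM at 2h (2.17 ± 0.12, SE), and was not called at 2h against normoxia (0.06, adjusted p = 0.874). P4ha2, a collagen prolyl hydroxylase, had 355, 329.5 and 319.9 CPM at 24h, against 94.5, 97.4 and 89.2 CPM at 2h (1.84 ± 0.10, SE), after a first rise of 1.17 by 2h. Car9, the membrane carbonic anhydrase that exports acid, was picked after its values were seen as the member with the largest fold change. It had 47.1, 41.5 and 40.1 CPM at 24h, against 1.06, 1.25 and 1.17 CPM at 2h (5.20 ± 0.33, SE, adjusted p = 4.41e-12). Some members had moved early and did not pass the test later. Kdm3a, a histone demethylase also picked after its values were seen, had 481, 540 and 592 CPM at 24h, against 484, 485 and 471 CPM at 2h (0.16 ± 0.09, SE, adjusted p = 0.142), but 213, 207 and 222 CPM in normoxia (2h over normoxia 1.17, adjusted p = 1.69e-09). Over the whole list the early comparison called 24 higher and 2 lower, where 2.08% of all genes rose and 1.21% fell.

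Of 21 glycolysis genes 19 rose and 1 fell, with a median log2 fold change of 1.05, where 18.8% of all genes rose and 17% fell. Pfkp, a phosphofructokinase, had 644, 743 and 703 CPM at 24h, against 197, 181 and 195 CPM at 2h (1.87 ± 0.08, SE, adjusted p = 7.12e-15). Pdk1, the kinase that shuts pyruvate out of the mitochondrial cycle, had 184, 207 and 205 CPM at 24h, against 52.7, 52.3 and 47.9 CPM at 2h (1.96 ± 0.11, SE, adjusted p = 5.96e-13). It had 9.38, 10.5 and 8.52 CPM in normoxia, which made the early change 2.43 on the log2 scale. Tpi1, triosephosphate isomerase, had 2505, 2794 and 2733 CPM at 24h, against 901, 814 and 804 CPM at 2h (1.67 ± 0.08, SE), and Pgk1, phosphoglycerate kinase, 2236, 2427 and 2080.1 CPM, against 960.4, 879 and 812 CPM (1.35 ± 0.09, SE). Both have processed pseudogenes that could take some of their reads. The 1 member that fell, a call lost without replicate 3 at 2h, was Slc2a3, a glucose transporter of neurons, with 10.8, 11.7 and 9.98 CPM at 24h, against 14.4, 16.1 and 19.3 CPM at 2h (-0.61 ± 0.19, SE, adjusted p = 0.0122). In all 4 enzymes the 24h libraries were separated from the 2h libraries.

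Among the HIF subunits and oxygen sensors 5 of 8 tested genes rose and 3 fell, while 3 rose without replicate 2 at 24h or replicate 3 at 2h and 1 fell without replicate 3 at 24h or replicate 3 at 2h. Of all genes 18.8% rose and 17% fell. Hif1a (chr12:73901375-73947530), the alpha subunit, had 679.7, 702 and 793 CPM at 24h, against 368, 332 and 317 CPM at 2h (1.1 ± 0.09, SE, adjusted p = 7.66e-10), and was not called between 2h and normoxia. Its partner Arnt had 59.8, 61.4 and 55.6 CPM at 24h, against 37.6, 41 and 44.5 CPM at 2h (0.52 ± 0.10, SE, adjusted p = 2.53e-04). Egln1, the main prolyl hydroxylase of HIF, had 119, 111 and 129 CPM at 24h, against 40.2, 32.4 and 32.5 CPM at 2h (1.77 ± 0.11, SE, adjusted p = 2.56e-12). All 3 were higher in every 24h library than in any 2h library. Hif1an, the asparagine hydroxylase that blocks the activation domain, moved the other way, with 44.9, 38.4 and 41.1 CPM at 24h, against 59.1, 64.2 and 58.5 CPM at 2h (-0.55 ± 0.10, SE, adjusted p = 1.23e-04). The other 2 that fell were Egln2 (-0.32) and Arnt2 (-0.92). Egln1 and Egln3 of this list are also counted among the HIF targets.

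The promoter stretches of 5 HIF pathway genes that rose are shown because they hold the letters that HIF binds. The windows run from 250 bases before to 50 bases after a start site and come from RefSeq on GRCm38.p6, and 34 of the 40 called-higher genes of the 3 HIF lists that had a window (85%, of 48 such genes) held ACGTG or GCGTG on either strand. The same letters stood in 67.6% of the tested genes with a window, in 43.8% of all 32851 windows and in 32 of 36 nucleolar genes called lower (88.9%). They are printed 5′ to 3′ on the gene's strand, with each match in capitals, where CACGT and CACGC are the same letters on the other strand. In Hif1a the run CACGTG is a match on both strands.
Pdk1 (chr2:71873134-71873238, + strand): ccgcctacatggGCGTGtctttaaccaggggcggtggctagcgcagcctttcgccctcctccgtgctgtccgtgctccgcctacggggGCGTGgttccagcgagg
Pgk1 (chrX:106186938-106186985, + strand): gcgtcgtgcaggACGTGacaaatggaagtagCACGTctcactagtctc
Egln1 (chr8:124949306-124949392, - strand): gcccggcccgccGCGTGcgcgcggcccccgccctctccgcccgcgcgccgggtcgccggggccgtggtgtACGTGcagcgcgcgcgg
Hif1a (chr12:73907720-73907813, + strand): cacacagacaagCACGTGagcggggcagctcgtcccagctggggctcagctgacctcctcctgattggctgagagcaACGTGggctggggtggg
Arnt (chr3:95434349-95434377, + strand): ccatagtttgggGCGTGtcttctgcccag
P4ha2 and Pfkp held 4 matches each in their windows, Tpi1, Vldlr and Hif1an held none, and a match describes letters, not binding.

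Of the 5 genes on which the study centred 4 rose late. Vegfa (chr17:46016993-46032369), the main growth factor of endothelium, had 118, 128 and 115 CPM at 24h, against 79.1, 83.7 and 92.1 CPM at 2h (0.51 ± 0.10, SE, adjusted p = 2.24e-04). It had 61.2, 50.5 and 63.9 CPM in normoxia, and the early change was 0.54 (adjusted p = 0.00195). Sfmbt2 (chr2:10370510-10595253), the polycomb gene whose intron was edited, had 39.5, 40.7 and 48.6 CPM at 24h, against 24.3, 22.7 and 28.6 CPM at 2h (0.77 ± 0.13, SE, adjusted p = 2.96e-05). For both genes the 24h libraries all lay above the 2h libraries, and counts over a whole gene do not check the deletion. Map2k1, the kinase MEK1, had 166.3, 177 and 172 CPM at 24h, against 129.5, 129.9 and 115 CPM at 2h (0.46 ± 0.09, SE). Yy1, a zinc finger factor, had 61.6, 71.1 and 81.5 CPM at 24h, against 74.3, 71.7 and 75.1 CPM at 2h (-0.05 ± 0.10, SE, adjusted p = 0.765), with overlapping groups. Of 8 tested VEGF ligands and receptors 4 were called higher and none lower, among them the co-receptor Nrp1 (0.46), the ligand Figf (0.46) and the ligand Pgf, which rested on 0.888, 1.16 and 1.06 CPM at 24h, against 0, 0 and 0.247 CPM at 2h. The receptors Kdr and Flt4 had too few counts to be tested. The 22 other angiogenic factors split evenly, with 5 higher, such as the chemokine Cxcl12 (0.80), the semaphorin Sema3c (0.89) and the peptide Apln (0.90), and 5 lower, such as Angptl2 (-1.04). Over all genes 18.8% rose and 17% fell. Of 8 tested endothelial markers of a longer list 2 rose, Cd34 (0.45) and Nos3 at under 1 CPM, a call lost without any 1 of the libraries other than replicate 3 at 24h, and none fell, and their part in these values was not tested.

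Of 32 sterol synthesis and SREBP genes 27 rose between 2h and 24h and 2 fell, with a median log2 fold change of 0.88. Among all genes 18.8% rose and 17% fell at this step. Between normoxia and 2h 6 of the list rose and none fell, where 2.08% of all genes rose and 1.21% fell. Sqle, the oxygen-dependent squalene epoxidase, had 264, 339.8 and 375 CPM at 24h, against 119, 108 and 100.4 CPM at 2h (1.58 ± 0.10, SE, adjusted p = 3.5e-12). Msmo1, a sterol methyl oxidase that also uses oxygen, had 167, 201 and 236 CPM at 24h, against 71.8, 63.1 and 51.1 CPM at 2h (1.70 ± 0.12, SE). Insig1, the membrane protein that holds back SREBP, had 96.2, 128 and 116 CPM at 24h, against 43.2, 33.4 and 35.4 CPM at 2h (1.60 ± 0.13, SE). Every 24h library was above every 2h library in these 3 genes, and Sqle was not called at 2h against normoxia. The 2 that fell were the fatty acid synthesis genes Acaca (-0.24) and Fasn (-0.34), and 1 gene fell without replicate 1 at 24h or replicate 3 at 2h. The letters TCACNCCAC, a form of the SREBP site chosen after these values were seen, were searched on either strand. They stood in 1 of 18 called-higher genes with a promoter window (5.56%), against 1.41% of tested genes with one.

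Lists for stress of the endoplasmic reticulum, amino acid supply and mitochondria are read against the 18.8% of all genes that rose and the 17% that fell. Of 26 ATF4 targets and integrated stress response genes 12 rose and 4 fell, with a median of 0.41, and none of the early comparison's 4 calls was a fall. Trib3, a pseudokinase of that response, had 25.4, 35.1 and 33.7 CPM at 24h, against 7.81, 10.4 and 7.91 CPM at 2h (1.85 ± 0.19, SE, adjusted p = 2.59e-08). Aldh18a1, which makes proline, rose (1.01), and Shmt2, a mitochondrial serine enzyme, fell (-0.82). Of 21 unfolded protein response genes 6 rose and 3 fell, with 12 not called. Xbp1, its spliced transcription factor, had 39, 40.1 and 40.7 CPM at 24h, against 18.1, 12.3 and 9.65 CPM at 2h (1.57 ± 0.17, SE), and the chaperone Hyou1 had 152, 129.7 and 122 CPM, against 234, 256 and 259.7 CPM (-0.89 ± 0.09, SE). The groups of both genes were apart, in opposite directions. Of 35 autophagy and mitophagy genes 12 rose and 5 fell, or 3 without replicate 3 at 24h. Among those that rose were Bnip3 and Bnip3l, receptors that hand mitochondria to autophagy, both also counted among the HIF targets. Bnip3 had 304, 386 and 438 CPM at 24h, against 106, 102 and 98 CPM at 2h (1.89 ± 0.11, SE), and Bnip3l 129.9, 170.1 and 174 CPM, against 47.3, 42.7 and 38.6 CPM (1.88 ± 0.12, SE). The kinase Pink1 of the same process had 12.7, 11.1 and 6.8 CPM at 24h, against 2.06, 2.39 and 2.84 CPM at 2h (2.07 ± 0.27, SE). Of 76 nuclear-encoded oxidative phosphorylation genes 10 rose and 6 fell, both smaller shares than over all genes, and 2 fell without replicate 3 at 24h and 1 without replicate 2 at 2h. Ndufv3, a complex I subunit, had 68.9, 78 and 67.2 CPM at 24h, against 19.9, 17.2 and 19.5 CPM at 2h (1.92 ± 0.11, SE). The 2 mitochondrially encoded mRNAs tested, mt-Co1 and mt-Nd6, were not called.

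Interferon response and antigen presentation genes rose late, with 13 of 20 tested members higher, none lower and a median log2 fold change of 0.82. The late shares over all genes were 18.8% higher and 17% lower. No member was called between normoxia and 2h, where 2.08% of all genes rose and 1.21% fell. Stat2, a transcription factor of the interferon signal, had 26.7, 26.1 and 26 CPM at 24h, against 8.86, 7.5 and 6.99 CPM at 2h (1.75 ± 0.17, SE, adjusted p = 7.59e-09). B2m, the light chain of class I antigen presentation, had 418, 505 and 498 CPM at 24h, against 278, 262 and 259 CPM at 2h (0.83 ± 0.09, SE, adjusted p = 1.27e-07). Gbp2, an interferon-induced GTPase, had 12.4, 20.8 and 17.5 CPM at 24h, against 4.59, 3.98 and 4.39 CPM at 2h (1.97 ± 0.27, SE). In each the 24h libraries stood above the 2h libraries without overlap. H2-K1, a class I heavy chain with close relatives, had 27.4, 27.4 and 27.8 CPM, against 13, 13.4 and 7.36 CPM (1.29 ± 0.16, SE), and its level is uncertain for that reason. Ifit1 had 22 counts at 24h, against 0 counts at 2h, which is at least 6.594-fold higher. In normoxia Ifit1 had 7 counts, and in C166 its counts went the other way, with 12 at 24h, against 65 at 2h. The list as a whole did not, since in C166 8 of the 20 genes were higher and none lower late. The difference between the lines was called for 1 member, more positive in C1.1. A further 11 genes of the list had too few counts to be tested. Of 20 NF-kB and chemokine genes 9 rose and 1 fell. Vcam1, an adhesion molecule for leukocytes, had 273, 286 and 311 CPM at 24h, against 153, 105 and 116 CPM at 2h (1.22 ± 0.13, SE), and Ptgs2, the inducible cyclooxygenase, had 158, 124 and 136 CPM, against 340.1, 277 and 281 CPM (-1.11 ± 0.15, SE). Of 4 tested blood cell markers 1 was called higher and none lower, with log2 fold changes from -1.66 to 3.52. The 1 called was Cd14, a receptor for bacterial lipids, with 45.7, 37.2 and 32.9 CPM at 24h, against 31.6, 26.5 and 23.3 CPM at 2h (0.51), and its call was lost without replicate 1 at 24h or replicate 3 at 2h. Of those not tested, Ptprc stood at a mean of 0.0849 CPM at 24h and 0 at 2h, Cd3e and Itgam at 0 at both times, and their part in these values was not tested.

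The promoter stretches of 3 of these genes are shown because they hold the paired GAAA letters of an interferon-stimulated response element. The letters GAAA, any 2 bases and GAAA again, were searched on both strands and chosen after the values were seen. They stood in 5 of the 10 called-higher genes with a window (50%), in 3.53% of tested genes with one and in 3.44% of all windows. For these and the other letters searched, uncalled members of a list were not counted apart. The shares therefore do not bear on the change of a list. Matches are in capitals, read on the gene's strand, and TTTC pairs are the same letters on the other strand.
Stat2 (chr10:128270264-128270297, + strand): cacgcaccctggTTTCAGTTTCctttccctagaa
B2m (chr2:122147536-122147569, + strand): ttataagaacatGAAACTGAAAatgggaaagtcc
Gbp2 (chr3:142620592-142620625, + strand): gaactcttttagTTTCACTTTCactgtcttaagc
The 2 windows of H2-K1 held no match.

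Of 25 tested collagen chains 13 rose and 2 fell, with a median log2 fold change of 0.63. Of 20 collagen hydroxylases and crosslinking enzymes 12 rose and none fell, with a median of 0.80. Over all genes 18.8% rose and 17% fell. The enzymes P4ha1, P4ha2, Plod1, Plod2, Lox and Loxl2 are also in the list of HIF targets, so the counts of these lists overlap. Early, none of the collagen chains rose and 1 fell, where 2.08% of all genes rose and 1.21% fell. Col12a1, a collagen that sits on fibril surfaces, had 242, 278 and 324 CPM at 24h, against 77.3, 80.9 and 81 CPM at 2h (1.82 ± 0.09, SE, adjusted p = 1.27e-13). Col5a1, which sets fibril width, had 461, 410.1 and 340.1 CPM at 24h, against 214, 219 and 232 CPM at 2h (0.86 ± 0.11, SE). Loxl2, a lysyl oxidase, had 127, 150.4 and 166.3 CPM at 24h, against 45, 46.4 and 48.8 CPM at 2h (1.66 ± 0.10, SE, adjusted p = 2e-12). For each the 24h libraries lay above all 2h libraries, as they did for the lysyl hydroxylase Plod1, with 147, 141 and 124 CPM at 24h, against 43.5, 51.8 and 45 CPM at 2h (1.55 ± 0.10, SE). The 2 chains that fell were those of basement membrane, Col4a1 (-0.41) and Col4a2 (-0.43), while no chain was called lower without replicate 2 or 3 at 24h or replicate 2 at 2h, and 1 was without replicate 3 at 2h. A longer list of smooth muscle and mesenchyme markers, which shares Col1a1, Col1a2 and Col3a1 with the collagen chains, had 8 of 18 higher and 4 lower. Dcn, the small proteoglycan decorin, had 233, 184 and 177 CPM at 24h, against 72.3, 50.1 and 59.1 CPM at 2h (1.71 ± 0.17, SE), in the other direction from Tagln. The part of cell state in the matrix values was not tested. Of 35 TGF-beta and BMP genes 8 rose and 6 fell, shares close to those over all genes. The growth factor Bmp4 had 170, 165 and 149 CPM at 24h, against 72.3, 65 and 68.3 CPM at 2h (1.24 ± 0.09, SE). The latency protein Ltbp1 had 289, 295 and 316 CPM, against 534, 537 and 589.6 CPM (-0.88 ± 0.07, SE). Of 18 Wnt ligands, receptors and antagonists 8 rose and 1 fell. The secreted antagonist Dkk1 rose (1.59), and the 1 that fell was Znrf3, which removes Wnt receptors (-0.69).

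**Figure D2:**
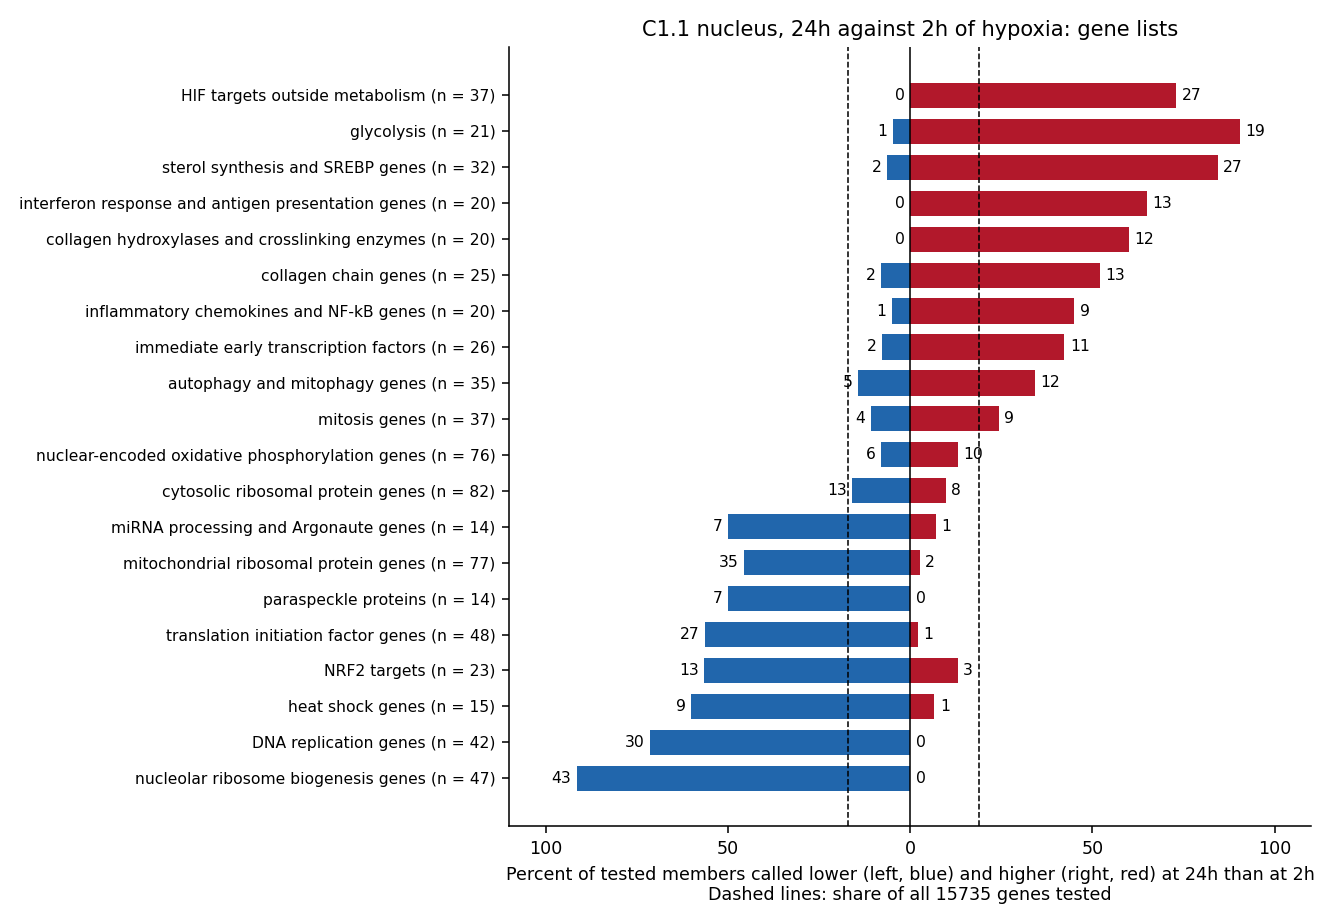
Percent of the tested members of 20 gene lists that were called higher (right, red) and lower (left, blue) at 24h than at 2h of hypoxia in the C1.1 nucleus, with the counts beside the bars and the share of all 15735 genes as dashed lines (18.8% higher, 17% lower). Glycolysis has 19 of 21 genes higher, and nucleolar ribosome biogenesis 43 of 47 lower.

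Of 47 genes of nucleolar ribosome biogenesis 43 fell and none rose, with a median log2 fold change of -0.72, where 17% of all genes fell. Rrp12 (chr19:41862851-41896173), needed to export ribosomal subunits, had 38.8, 36 and 30.6 CPM at 24h, against 122, 127 and 118 CPM at 2h (-1.80 ± 0.10, SE, adjusted p = 6.81e-13). Ncl, the abundant nucleolar protein nucleolin, had 427, 538 and 570 CPM at 24h, against 1366, 1420.5 and 1233 CPM at 2h (-1.39 ± 0.10, SE, adjusted p = 2.63e-11). Ddx21, a helicase of rRNA processing, had 217, 229.8 and 235 CPM at 24h, against 535, 454 and 551 CPM at 2h (-1.18 ± 0.08, SE). The groups were far apart in all 3 genes, and likewise for Nhp2 of the box H/ACA particle, with 35.5, 34.8 and 36 CPM at 24h, against 87.7, 97 and 84.8 CPM at 2h, and Rrp9 of the U3 particle, with 10.3, 7.9 and 7.71 CPM, against 26.4, 27.8 and 25.9 CPM. Of these 5 genes none was called between 2h and normoxia. Over the list the early comparison called 5 lower, where 1.21% of all genes fell. The E-box letters CACGTG are a palindrome, were chosen after these values were seen and are part of some ACGTG matches. They stood in 9 of 36 called-lower genes with a window (25%), against 11.7% of tested genes with one.

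Other parts of the translation machinery are given next, beside the 17% of all genes that fell. Of 48 translation initiation factor genes 27 fell and 1, Eif1b (0.73), rose, or 2 without replicate 1 at 2h, with a median of -0.34. Eif3b, a subunit of the largest initiation factor, had 200.1, 188 and 188 CPM at 24h, against 363, 517 and 349 CPM at 2h (-1.09 ± 0.10, SE, adjusted p = 7.10e-09), and Eif5a, an elongation factor despite its name, 245, 246 and 249 CPM, against 450.1, 496 and 439.7 CPM (-0.91 ± 0.10, SE). The 24h libraries were lower throughout. Of 77 mitochondrial ribosomal protein genes 35 fell and 2 rose, while 21 fell without replicate 2 at 2h, none rose without replicate 2 at 24h and 1 rose without replicate 3 at 24h or replicate 1 or 2 at 2h. Mrpl37 had 17.3, 16.8 and 13.5 CPM at 24h, against 28.9, 29.7 and 26.9 CPM at 2h (-0.84 ± 0.13, SE), and in Mrpl12, with 21.6, 20.8 and 16.3 CPM at 24h, against 37.8, 84.5 and 29.9 CPM at 2h, that replicate was the highest by over 2-fold. Of 20 aminoacyl-tRNA synthetases 5 rose, such as Sars (0.57), and 6 fell, such as Kars (-0.76), with 8 higher without replicate 1 at 24h and 3 higher without replicate 2 or 3 at 24h or replicate 1 at 2h. Cytosolic ribosomal protein genes had no common direction in the nucleus, with 8 of 82 higher, 13 lower and a median of -0.02. Without replicate 2 at 24h 3 were higher and without replicate 3 at 2h 4, and their many processed pseudogenes make single values uncertain.

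Of 42 DNA replication genes 30 fell and none rose, with a median log2 fold change of -0.38, where 17% of all genes fell and 18.8% rose. Ccne1, the cyclin that starts S phase, had 10.4, 10.3 and 9.83 CPM at 24h, against 31.3, 24.1 and 23.1 CPM at 2h (-1.37 ± 0.13, SE, adjusted p = 4.16e-09). Mcm5, a subunit of the replicative helicase, had 206, 224 and 215 CPM at 24h, against 358, 401 and 369 CPM at 2h (-0.81 ± 0.08, SE). Rrm2, a ribonucleotide reductase subunit that limits nucleotide supply, had 65.1, 78.5 and 81.3 CPM at 24h, against 153, 122.9 and 131 CPM at 2h (-0.85 ± 0.10, SE). All 24h libraries were below all 2h libraries in these genes. Of 37 mitosis genes 9 rose and 4 fell, with a median of 0.01, after 18 had been called lower and none higher at 2h against normoxia. At that early step 1.21% of all genes were lower and 2.08% higher. Without replicate 3 at 24h 4 of the mitosis genes rose late, and without replicate 2 or 3 at 2h 2 fell. Nusap1, a spindle protein, had 101, 133 and 153 CPM at 24h, against 89.2, 83.7 and 81.9 CPM at 2h (0.60 ± 0.10, SE), whereas Mybl2, which drives late cell cycle transcription, had 31.1, 29.9 and 30.3 CPM, against 55.9, 58.4 and 60.0 CPM (-0.93 ± 0.12, SE). Of 24 CDK inhibitors, p53 targets and D cyclins 9 rose and 6 fell. Ccng2, an unconventional cyclin linked to arrest, had 109.6, 128 and 124 CPM at 24h, against 37.1, 37 and 44.1 CPM at 2h (1.61 ± 0.12, SE), and the inhibitor Cdkn1b 311, 328 and 319 CPM, against 187, 197 and 204 CPM (0.71 ± 0.08, SE). Of 59 replication-dependent histone genes, whose near-identical copies share reads, 2 rose and 7 fell, a smaller share than over all genes in each direction. With 1 library left out the count that rose ran from 1 to 4, with 4 when that library was replicate 2 at 2h, and 4 fell without replicate 3 at 24h and 3 without replicate 2 at 2h.

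NRF2, the factor that answers oxidants, has a well-known set of targets. Of 23 such genes 13 fell and 3 rose, with a median log2 fold change of -0.50, while 4 rose and none fell between normoxia and 2h. Late, 17% of all genes fell and 18.8% rose, and early 1.21% fell and 2.08% rose. Hmox1, which degrades heme, had 113, 130.5 and 127 CPM at 24h, against 326, 275 and 305 CPM at 2h (-1.29 ± 0.09, SE, adjusted p = 2.63e-11). Txnrd1, thioredoxin reductase, had 172, 182 and 189 CPM at 24h, against 496, 505 and 594 CPM at 2h (-1.55 ± 0.11, SE, adjusted p = 5.14e-11). Nqo1, a quinone reductase, had 37.1, 44.6 and 47.2 CPM at 24h, against 103, 134 and 99.9 CPM at 2h (-1.38 ± 0.12, SE). The groups did not overlap in any of these, nor in Gsta4, a glutathione transferase, with 15.4, 20.9 and 23 CPM at 24h, against 73.5, 82.1 and 77.9 CPM at 2h. The 3 that rose were Gstm1 (1.29) and the ferritin chains Ftl1 (0.46) and Fth1 (0.40). Of 15 heat shock genes 9 fell and 1, Hspb1 (0.66), rose. Hspd1, the mitochondrial chaperonin, had 376, 405 and 397 CPM at 24h, against 847, 765 and 741 CPM at 2h (-1.0 ± 0.07, SE, adjusted p = 5.02e-11). Hsp90ab1, the constitutive HSP90, had 1300.5, 1433 and 1474 CPM at 24h, against 2374, 2222 and 2328 CPM at 2h (-0.72 ± 0.07, SE), and Hsph1, a nucleotide exchange factor of HSP70, 85.3, 66.2 and 67.1 CPM, against 282, 203 and 176 CPM (-1.60 ± 0.20, SE). In all 3 the 24h libraries were the lower ones.

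Genes for RNAs and proteins that act in the nucleus were counted next, beside the 18.8% of all genes that rose and the 17% that fell. Of 22 paraspeckle and nuclear long noncoding RNAs 9 fell and 2 rose, Firre (0.65) and Malat1 (0.32). None rose without replicate 1 at 24h or replicate 2 at 2h, and 1 rose without replicate 2 at 24h or replicate 1 or 3 at 2h. Malat1 had 17118, 11766 and 11584 CPM at 24h, against 11565, 9581 and 11381 CPM at 2h, so that replicate 1 at 24h was the highest and the groups came close. Neat1, the scaffold of paraspeckles, had 11722, 10187 and 9009 CPM at 24h, against 12668, 13195 and 12854 CPM at 2h (-0.32 ± 0.09, SE, adjusted p = 0.00858), and without replicate 3 at 24h the call was lost (adjusted p = 0.0579). Of 14 paraspeckle proteins 7 fell and none rose, such as Rbm14 (-0.67). Of 32 splicing regulators 11 fell and 4 rose, or 2 without replicate 2 or 3 at 24h or replicate 1 at 2h. Hnrnpa1, a repressor of splice sites, had 280.5, 326 and 302 CPM at 24h, against 511, 475 and 490 CPM at 2h (-0.70 ± 0.07, SE), and Clk1, a kinase of splicing factors, 257, 272 and 288 CPM, against 155, 171 and 163 CPM (0.74 ± 0.09, SE). These 2 genes moved in opposite directions with no overlap of groups. Of 14 miRNA processing and Argonaute genes 7 fell and 1, Prkra (0.37), rose, but none rose without replicate 2 or 3 of either time. Drosha, the nuclear enzyme that cuts hairpins from primary transcripts, had 101, 92.1 and 103 CPM at 24h, against 138, 119.6 and 147 CPM at 2h (-0.45 ± 0.09, SE, adjusted p = 2.48e-04), and the exporter Xpo5 166.3, 157 and 169.8 CPM, against 236, 231 and 248 CPM (-0.54 ± 0.07, SE). Both were lower in all 24h libraries. Of 32 polycomb genes 10 fell, such as Cbx2 (-1.10) and Phc2 (-0.69), and 4 rose, Ezh1, Pcgf5, Phf1 and Sfmbt2. Of 18 JmjC histone demethylases, oxygen-using enzymes of chromatin, 7 rose, such as Kdm4c (0.59) and Kdm5b (0.58), and 2 fell, or 1 without replicate 2 or 3 at 24h or replicate 1 at 2h and none without replicate 3 at 2h. Of 29 mRNA decay factors 4 rose and 8 fell, such as Khsrp (-0.58), and 2 rose without replicate 2 at 24h or replicate 3 at 2h.

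Signalling and clock lists held genes called in both directions, where 18.8% of all genes rose and 17% fell. Of 26 immediate early factors 11 rose and 2, Myc (-0.57) and Fosl1 (-0.78), fell, with 4 lower without replicate 1 at 24h. Jund, a member of the AP-1 dimer, had 41.9, 30.9 and 17.4 CPM at 24h, against 6.75, 8.36 and 8.41 CPM at 2h (1.94 ± 0.21, SE, adjusted p = 6.18e-08), with the third library at 24h lower than the other two and above all at 2h. Of 11 dual-specificity MAP kinase phosphatases 4 rose, such as Dusp16 (1.04), and 4 fell, such as Dusp14 (-1.21). Of 23 genes of the Ras cascade 5 rose and 6 fell. Of 21 YAP-TEAD genes 9 rose and 3 fell, and of 29 actin and focal adhesion genes 9 rose, such as Tpm4 (0.78) and Ilk (0.77), and 4 fell, such as Itga6 (-1.10). Of 37 insulin, PI3K-AKT, mTOR and FOXO genes 9 rose and 6 fell, shares close to those over all genes. Eif4ebp1, the brake on cap-dependent translation, had 62.1, 75.7 and 74.3 CPM at 24h, against 32.6, 25.6 and 40.6 CPM at 2h (1.1 ± 0.13, SE), and Rptor, the scaffold of mTORC1, 62.5, 58 and 61.6 CPM, against 97.1, 106 and 115 CPM (-0.80 ± 0.09, SE). These 2 genes moved in opposite directions with no overlap of groups. Among 11 Notch genes 1 was called, the co-activator Maml1 (-0.31, adjusted p = 0.0311), and the call was lost without any 1 of replicates 2 and 3 at 24h and 1 and 3 at 2h. With 1 library left out 0 to 3 genes of that list were lower, with 3 without replicate 1 at 24h and 2 without replicate 2 at 2h, and 1 was higher without replicate 3 at 24h or replicate 1 at 2h. Of 18 circadian genes 7 rose and 5 fell, or 3 without replicate 1 at 2h. Arntl, the core activator of the clock, had 24, 23.9 and 25.2 CPM at 24h, against 5.28, 4.32 and 6.43 CPM at 2h (2.19 ± 0.17, SE, adjusted p = 2.71e-10), and its repressor Per2 22.9, 20.2 and 18.5 CPM, against 62.9, 43.3 and 52.7 CPM (-1.37 ± 0.15, SE, adjusted p = 6.10e-08). The activator was high and the repressor low in every 24h library.

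Set beside normoxia, the late change took several shapes. In the order normoxia, 2h and 24h, Ndrg1 averaged 20.1 ± 1.45, 74.2 ± 10.8 and 705 ± 133 CPM and Bnip3 16.1 ± 1.55, 102 ± 3.78 and 376 ± 67.4 CPM (SD, n = 3 each), so that both rose at each step. Lox averaged 228 ± 13.7, 237 ± 7.87 and 1068 ± 248 CPM and Rrp12 141 ± 4.87, 122 ± 4.46 and 35.1 ± 4.17 CPM, with a change called at the late step alone. Hmox1 averaged 190.2 ± 20.3, 302 ± 25.2 and 123.4 ± 9.15 CPM, first higher (0.67, adjusted p = 2.40e-05) and then below its level in normoxia (-0.62 for 24h over normoxia, adjusted p = 2.53e-06). Cry1, a repressor of the circadian clock, averaged 13.5 ± 1.44, 27.3 ± 1.8 and 11.9 ± 1.15 CPM, a rise (1.02, adjusted p = 1.61e-05) followed by a fall back (-0.17, adjusted p = 0.32, for 24h over normoxia). Ankrd1, a target of YAP, ran the other way at 208 ± 7.63, 128 ± 9.8 and 226 ± 30.8 CPM, with -0.70 at the early step (adjusted p = 1.16e-04) and 0.12 for 24h over normoxia (adjusted p = 0.364). The early and late fold changes of a gene share the 2h libraries, so a high or low 2h level moves them in opposite directions.

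**Figure D3:**
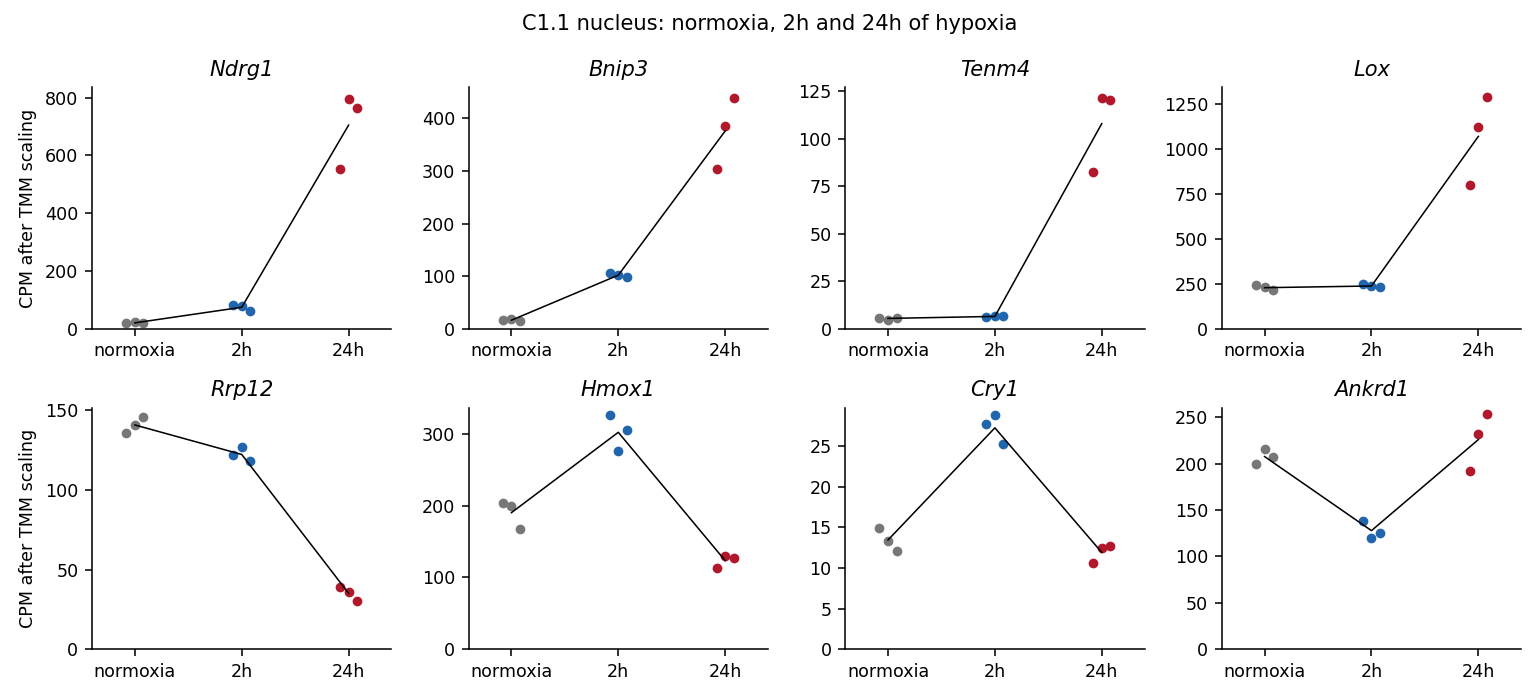
Level of 8 genes in the C1.1 nucleus in normoxia (grey), at 2h (blue) and at 24h (red) of hypoxia, in CPM after TMM scaling on axes that start at 0. Points are libraries, and lines join the means of 3. Tenm4 and Lox are level until 2h and high at 24h, Rrp12 is low at 24h, and Hmox1 and Cry1 are highest at 2h.

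The same comparison was made in the nucleus of the parental C166 line, which shares no library with it. There 2815 genes rose (17.9%) and 2589 fell (16.5%). Among the lists, 29 of 37 HIF targets were higher and 2 lower, and 29 of 32 sterol genes were higher in C166. There 44 of 47 nucleolar and 30 of 42 replication genes were lower. Some lists were less alike. In C166 2 of 20 NF-kB and chemokine genes rose and 1 fell, and 1 of 37 mitosis genes rose and 9 fell. Of 82 cytosolic ribosomal protein genes none rose and 24 fell. Such counts do not test a difference. The difference of the 2 late responses was then tested in the same fit, as C1.1 minus C166, and was called for 383 genes, 232 with a more positive change in C1.1 (1.47%) and 151 with a more negative one (0.96%). Direction over these genes depended on the scale, since 60.6% were more positive in C1.1 with TMM, against 46.3% with upper-quartile factors and 42.1% with library totals alone. With only these 12 libraries in the fit 150 genes were called. The count also rested on single libraries, since it was 204 without replicate 2 and 227 without replicate 3 of C1.1 at 24h, and for C166 it was 231 (replicate 1 at 2h left out), 218 (replicate 3 at 2h), 247 (replicate 3 at 24h) and 693 (replicate 1 at 24h).

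Smooth muscle and mesenchyme markers carried 6 of these calls among 18 tested, all more positive in C1.1. Dcn had 5.53, 10.7 and 6.3 CPM at 24h, against 16.8, 19 and 22.3 CPM at 2h in C166, a fall where C1.1 rose (difference 3.06 ± 0.26, SE, adjusted p = 5.47e-08). Myl9, a myosin light chain, had 70.3, 72.4 and 71.2 CPM at 24h, against 70.7, 64.2 and 78.4 CPM at 2h in C1.1 and 57.7, 83.9 and 71.7 CPM, against 324, 354 and 327 CPM in C166 (difference 2.24 ± 0.15, SE, adjusted p = 1.30e-09). Cnn1, calponin, had 2.28, 3.56 and 5.19 CPM, against 2.27, 3.01 and 1.85 CPM in C1.1 and 12.4, 20.2 and 18 CPM, against 53.5, 50.5 and 55.7 CPM in C166 (difference 2.28 ± 0.33, SE). In C166 these contractile genes fell, while in C1.1 Myl9 and Cnn1 were not called and their groups overlapped. Serpinf1, a secreted serpin that inhibits vessel growth, was level in C1.1 at 111, 89.4 and 94.7 CPM, against 90.2, 98.3 and 101 CPM and fell in C166 to 0.834, 0.707 and 0.958 CPM at 24h, against 6.01, 4.5 and 4.49 CPM at 2h (difference 2.60 ± 0.25, SE, adjusted p = 6.63e-07). The circadian list had 5 of 18 genes more positive in C1.1 and the actin list 5 of 29, with none more negative in either.

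The named genes that rose less in C1.1 than in C166 had a higher level at 2h in C1.1. Tmem45a had 11.8, 15.3 and 9.45 CPM at 24h, against 0.207, 0.165 and 0.274 CPM at 2h in C166, so that C1.1 was higher at both times while its fold change was smaller (difference -2.56 ± 0.43, SE, adjusted p = 8.16e-04). Ndrg2, a relative of Ndrg1, had 61.8, 65.8 and 66.5 CPM, against 16.5, 16.4 and 20.3 CPM in C1.1 and 43.5, 55.3 and 45 CPM, against 1.81, 3.51 and 1.7 CPM in C166 (difference -2.45 ± 0.26, SE). Dkk1 had 175, 158 and 145 CPM, against 46.8, 63 and 49.2 CPM in C1.1 and 18.8, 34.7 and 24.7 CPM, against 1.45, 2.56 and 2.24 CPM in C166 (difference -2.04 ± 0.28, SE). All 3 rose in both lines, and in all 3 the libraries of C1.1 at 2h were above those of C166. Megf10, a phagocytosis receptor, fell in C1.1 to 14.9, 15.2 and 16.9 CPM at 24h, against 40.3, 40.9 and 49.7 CPM at 2h, and had 38, 27.3 and 28.4 CPM, against 23.2, 25.9 and 23.1 CPM in C166 (difference -1.85 ± 0.19, SE, adjusted p = 1.26e-06). Vegfa, Sfmbt2, Map2k1, Hif1a and Yy1 were not called for the difference, with values of -0.18 ± 0.14, 0.03 ± 0.18, -0.30 ± 0.12, 0.40 ± 0.13 and 0.22 ± 0.14 (SE), which does not show that they acted alike. The log2 fold change of Vegfa in C166 was 0.68 ± 0.10 (SE), from 173, 139 and 149.6 CPM at 24h, against 94.1, 101 and 91.7 CPM at 2h.

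**Figure D4:**
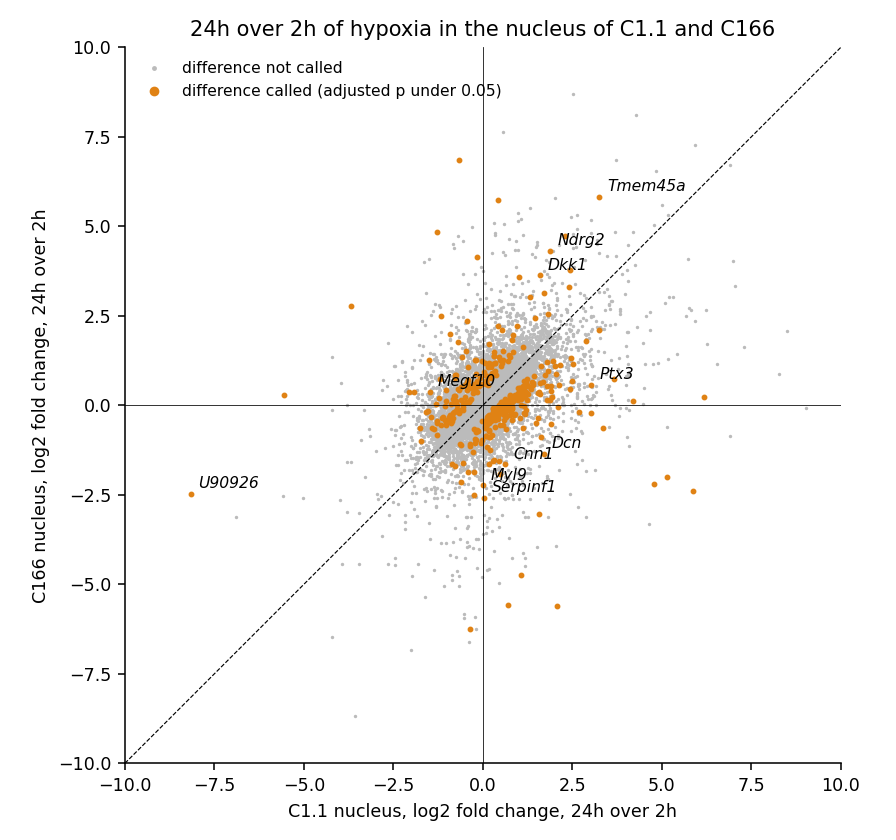
Log2 fold change of 24h over 2h of hypoxia for each of 15735 genes in the nucleus of C1.1 (x axis) and of C166 (y axis). Orange points are the 383 genes called for the difference between the lines, grey points the others, and the dashed line marks equal change. Dcn, Myl9, Cnn1 and Serpinf1 lie below the line with a fall in C166, and Tmem45a, Ndrg2 and Dkk1 above it with a rise in both.

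In the cytoplasm of C1.1 the late comparison called 2370 of 16682 genes higher (14.2%) and 2578 lower (15.5%), in a fit of all 36 libraries. The difference of nucleus minus cytoplasm was called for 172 genes, 83 more positive in the nucleus (0.498%) and 89 more negative (0.534%). The share that was more positive was 48.3% with TMM, 34.5% with RLE factors, 33.8% with upper-quartile factors and 61.5% with library totals alone, and so has no fixed side. Without replicate 2 of the nucleus at 2h 59 genes were called. The count was 96, 112 and 105 without replicates 2 and 3 of the nucleus at 24h and replicate 3 at 2h, 96 without replicate 2 of the cytoplasm at 24h, 79 without replicate 3 of the cytoplasm at 2h and 269 without replicate 1 of the nucleus at 24h. Cytosolic ribosomal protein genes held 16 of the more negative calls among 82 tested and none of the more positive, with 46 higher and 3 lower in the cytoplasm (median log2 fold change 0.32), against 8 higher and 13 lower in the nucleus. Nucleolar genes fell in both fractions, 43 of 47 in the nucleus and 44 of 47 in the cytoplasm, and none was called for the difference.

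Eef2, the translation elongation factor that moves the ribosome, had 1948, 1823 and 1717 CPM at 24h, against 2381, 2232 and 2515 CPM at 2h in the nucleus and 6333, 7694 and 7217 CPM, against 3944, 3854 and 3559 CPM in the cytoplasm (difference -1.28 ± 0.14, SE, adjusted p = 3.57e-07). Neat1 had 11076, 9623 and 8611 CPM, against 12299, 12543 and 12486 CPM in the nucleus and 813, 651 and 864 CPM, against 335, 459 and 492 CPM in the cytoplasm (difference -1.21 ± 0.17, SE, adjusted p = 5.40e-05). Snhg12, a noncoding host of small nucleolar RNAs, had 29.1, 32.5 and 27.1 CPM, against 48.4, 59.4 and 49 CPM in the nucleus and 18.7, 21.7 and 16.5 CPM, against 12.1, 12.4 and 12.7 CPM in the cytoplasm (difference -1.43 ± 0.21, SE). All 3 fell in the nucleus and rose in the cytoplasm. Qars, glutaminyl-tRNA synthetase, had 94.4, 90.7 and 89.7 CPM, against 127, 158 and 113 CPM in the nucleus and 98.3, 103 and 118 CPM, against 60.5, 62.3 and 64 CPM in the cytoplasm (difference -1.31 ± 0.17, SE). Tenm4 rose in both fractions and more in the nucleus, with 77.7, 115 and 115 CPM, against 5.89, 6.54 and 6.25 CPM there and 28.7, 31.7 and 34 CPM, against 5.51, 6.03 and 4.38 CPM in the cytoplasm (difference 1.47 ± 0.34, SE, adjusted p = 0.0207), a call that was lost without any 1 of 7 of the 12 libraries. Pdk1 rose more in the cytoplasm (difference -0.90 ± 0.17, SE, adjusted p = 0.00377), as did Egln1 (-0.60 ± 0.15, SE, adjusted p = 0.0394). Hsp90ab1 fell in the nucleus and had a log2 fold change of 0.12 ± 0.10 (SE) in the cytoplasm (difference -0.86 ± 0.14, SE, adjusted p = 6.12e-04).

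**Figure D5:**
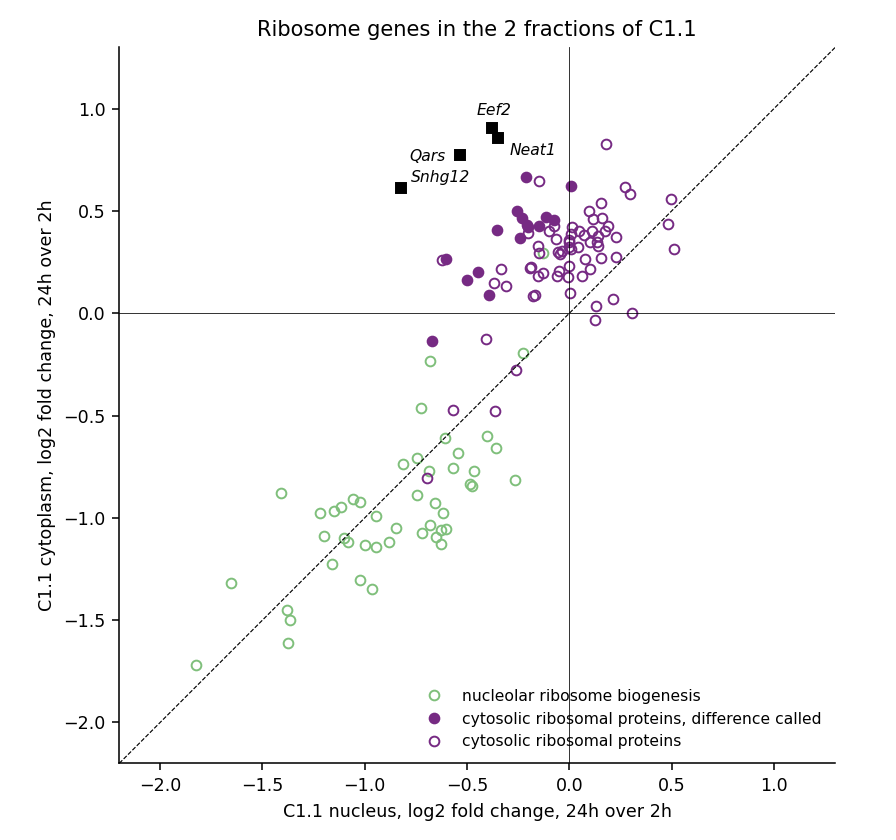
Log2 fold change of 24h over 2h of hypoxia in the nucleus (x axis) and cytoplasm (y axis) of C1.1 for 47 nucleolar genes (green), 82 cytosolic ribosomal protein genes (purple, filled where the difference of the fractions was called, 16 genes) and 4 named genes (black squares). The nucleolar genes lie near the dashed line of equal change, and most ribosomal protein genes above it, with a median of 0.32 in the cytoplasm and -0.02 in the nucleus.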

How the data were processed

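RNA was sequenced from nuclear and cytoplasmic fractions of C1.1 and C166 cells in normoxia and hypoxia, 36 libraries in 12 groups of 3. The deposited table holds raw read counts per gene, which the authors made from ribosomal RNA-depleted stranded libraries, with TopHat2 2.0.11, Bowtie2 2.2.2 and GRCm38 named in the submitters' notes. Cufflinks 2.2.1, Cuffdiff, edgeR and featureCounts stand in the same notes with no role given, and whether the counting used strand is not given in the sources used here, so overlapping and antisense genes may share reads. Other columns of the authors hold normalized counts plus a pseudocount and DESeq2 fold changes, errors and p-values, and were not used. Genes were filtered by filterByExpr, scaled by TMM and tested two-sided by edgeR 4.0.16 (R 4.3.3, limma 3.58.1) in a fit of the 18 nuclear libraries in 6 groups, and for the fractions in a fit of all 36. All adjusted p-values are Benjamini-Hochberg values over all genes of the fit. Coordinates of genes come from GENCODE on GRCm38, which matched 14658 of the 15735 tested genes by symbol.

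Lists were described by counts and medians. Some genes stand in more than 1 list, such as Lox, Egln1, Bnip3, Vldlr and Slc2a1, so the lists are not independent of each other. Named genes were the 12 largest rises and falls among called genes above the median expression with groups that did not overlap, up to 4 members of each list by p, the genes of the study, and 5 per direction for each difference. Genes named to identify a count of 5 or fewer, with Car9, Kdm3a and Malat1, were picked with their values in view. Some genes that meet the rule are not reported here. Lists, comparisons and members were chosen with earlier results of these data known. Alternatives were other size factors, no filter, the compared libraries alone, a replicate block, DESeq2 1.42.0, a 2-fold minimum and leaving out each library. The nuclear fit was tested on simulated data with known changes of 1.5-fold, 2-fold and 4-fold. The late comparison recovered 49.3%, 76.1% and 95.5% of them, with 10 false calls. For the difference between the lines the shares were 26.9%, 58.2% and 87.9%, with 5 false calls. A gene that was not called can therefore still have changed.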

Additional observations from a re-analysis of the deposited data

Results flagged for a closer look

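The late nuclear response differed between C1.1 and C166 for 383 genes by the test of the difference in edgeR's quasi-likelihood fit. The naming rule asked for a mean level above the median over the nuclear libraries of both lines, which C166 alone can supply. By it the 5 largest positive differences of C1.1 minus C166 were Dcn (3.06), Serpinf1 (2.60), Ptx3 (2.47), Cnn1 (2.28) and Myl9 (2.24) on the log2 scale. For Dcn, Serpinf1, Cnn1 and Myl9 the level fell in C166, while Ptx3 was called higher in both lines and had counts in 1 of the 3 libraries of C1.1 at 2h. Its difference was no longer called without replicate 2 of C1.1 at 24h (adjusted p = 0.0601) or replicate 1 (0.0748) or 2 (0.0774) of C1.1 at 2h. The 5 largest negative differences were U90926 (-5.68), Tmem45a (-2.56), Ndrg2 (-2.45), Dkk1 (-2.04) and Megf10 (-1.85). U90926 had 0 counts in C1.1 at 24h, against 97 at 2h, and 920 in C166 at 24h, against 4872 at 2h, and its fitted difference depends on the prior count. Megf10 was called in opposite directions in the lines.

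The late response of C1.1 differed between nucleus and cytoplasm for 172 genes by the same kind of test. More positive in the nucleus were Scarna13 (1.5), Tenm4 (1.47), Snord17 (1.32), Ackr3 (1.1) and Tmem192 (1.07), where Scarna13 and Snord17 are small RNAs of the nucleus and Ackr3 is a chemokine scavenger. More negative were Snhg12 (-1.43), Qars (-1.31), Eef2 (-1.28), Wdr90 (-1.22) and Neat1 (-1.21). Scarna13, Tenm4, Snord17, Ackr3, Tmem192 and Wdr90 lost the call in 28 of the 120 combinations of 10 genes and 12 libraries left out, and the other 4 genes kept it in each.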

How the results depend on the processing

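The late nuclear comparison called 4625 to 5100 genes when 1 library was left out, 5635 with RLE factors, 5649 with upper-quartile factors, 5648 with library totals, 5474 without the filter, 5146 with only the 6 libraries and 5915 with DESeq2, against 5640. A minimum of 2-fold left 1289 genes, 137 for the difference between the lines and 24 for that between the fractions. The difference between the lines was called for 604 genes without the filter, 150 with only the libraries compared, 611 with DESeq2 and 204 to 693 with 1 library left out, against 383. The difference between the fractions was called for 317 genes without the filter, 498 with DESeq2 and 59 to 269 with 1 library left out, against 172. DESeq2 gave no adjusted p for 1, 2746 and 8086 genes in these 3 comparisons. The cause of these changes was not tested.

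Deviations of same-numbered libraries from their group means correlated at -0.05, -0.02 and -0.02 between 24h and 2h in the C1.1 nucleus, and between its nucleus and cytoplasm at 0.23, 0.04 and 0.09 at 24h and 0.04, -0.05 and 0 at 2h. Since not every pair reached 0.1, and the labels name no shared culture, the numbers were not taken to pair them. Cells were split into nucleus and cytoplasm, so libraries of the fractions may share a culture, but the fit treated them as independent. With a replicate block 5540 genes were called for the late comparison, 336 for the lines and 179 for the fractions. The block held an effect per replicate number across all groups, so it does not model a pairing of the fractions within a group. Of the genes called and named, Nos3 lost its call with the block (adjusted p = 0.0564), Nos3 and Maml1 without the filter, Maml1 with only the libraries compared, where the difference of Ptx3 between the lines was also lost (adjusted p = 0.0692).

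Values that changed sign belonged to genes near 0 that were not called. Myl9 had -0.0028 with upper-quartile factors, -0.0335 with library totals, -0.0023 with only the libraries compared and -0.062 to 0.0861 with 1 library left out. Serpinf1 had -0.0098 with library totals and -0.0753 to 0.0811 with 1 library left out. Under the same leave-one-out fits Yy1 had -0.1569 to 0.0412, Grhl2 -0.0392 to 0.3049 and mt-Nd6 -0.4115 to 0.4586.

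Totals of 15314724 to 20505843 counts limit genes with few counts, such as Nos3, Pgf and Ptx3.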

Other observations

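Some genes had counts at 1 of the 2 times alone, and they were picked after their values were seen. Serpina3m, a serpin of the acute phase, had 195 counts over the 3 libraries at 24h, against 0 at 2h, which with a floor of 3 counts over the group is at least 58.45-fold higher. In normoxia it had 12 counts, and C166 had 1 count at each time. Hp, which binds free hemoglobin, had 133 counts at 24h, against 0 at 2h, at least 39.86-fold higher, and 149 in C166 at 24h, against 35 at 2h. Cnnm1 had 110 counts at 24h, against 0 at 2h, at least 32.97-fold higher. P2ry12, a nucleotide receptor, had 0 counts at 24h, against 40 at 2h, at least 14.83-fold lower. Tgtp1, an interferon-induced GTPase, had 45 counts at 24h, against 0 at 2h, in both lines.

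By annotated class, short and intronic RNAs of the nucleus had lower medians than mRNAs. Of 199 small nucleolar RNAs tested 37 fell and 2 rose between 2h and 24h, with a median log2 fold change of -0.56, of 81 small nuclear RNAs 7 fell and 1 rose (-0.55), and of 81 sense intronic transcripts 16 fell and 1 rose (-0.47). Of 11771 protein-coding genes 2255 fell and 2706 rose, with a median of 0.04. Over all genes tested 17% fell and 18.8% rose. The shares of these short and intronic classes that fell were near or below that, and the shares that rose were far below it. Many small nucleolar RNAs lie in introns of host genes, and reads of the host cannot be told apart from theirs in these counts.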
